A study of Mus musculus with 5 samples.

Results

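Potassium channel genes were examined in newborn mouse dLGN (dorsal lateral geniculate nucleus, where retinal signals pass through the thalamus) with and without the transmembrane semaphorin Sema6A. The members were all probe sets whose single gene symbol in the platform annotation starts with Kcn, which gave 167 of the 45037 probe sets tested and 84 of 18193 genes. Of these, 81 were coding genes and 3 were non-coding RNAs that carry the name of a channel gene. Each gene was read at its brightest probe set, the one whose mean across all 5 arrays was highest, and its other probe sets served as a check. The knockout group held 2 arrays of Sema6A-/- mice and the control group 3 arrays of Sema6A heterozygous mice, which still carry 1 working copy, so no wild-type tissue was compared. All mice were on a C57BL/6 background and were taken at P0, and each array held dLGN tissue pooled from pups of 1 genotype out of different litters. Values are log2 expression per probe set, and every difference is knockout minus control on that scale. The median of all probe sets, 6.41, is used as a level below which a probe set counts as dim, and 52 of the 84 genes reached it in at least 1 group.

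Potassium channels let potassium leave the cell, which sets the resting potential, ends each action potential and limits how often a neuron fires. A channel is built from pore-forming subunits, and the gene families differ in what opens them: membrane voltage, internal calcium or sodium, G proteins and nucleotides, or no gate of that kind in the leak channels. Thalamic relay neurons switch between tonic and burst firing, and leak, A-type and calcium-activated potassium currents take part in that switch. In the newborn dLGN these neurons are receiving retinal axons and are still electrically immature.

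The targeted gene read lower in both knockout arrays than in every control array, at 7.81 and 7.85 against 10.39 to 10.65 at its brightest probe set (difference -2.68, limma adjusted p = 0.0236). All 10 listed markers of thalamic relay neurons reached the median level, and their summed linear signal was 45660 and 49930 in the knockout and 44690 to 46570 in the control. Single markers differed, with both knockout arrays above every control for 4 of 10, among them Gbx2 (1.97) and Foxp2 (0.48). Both lay below every control for 1, Rora (-0.36). Knockout replicate 1 stood apart. Its 12 markers of prethalamic and GABAergic neurons summed to 8974, against 1503 in knockout replicate 2 and 1004 to 1781 in the controls, and both knockout arrays exceeded every control for 6 of them. The group means of Dlx1, Dlx2 and Dlx5 were under the median level in both groups. Dlx1 and Dlx2 exceeded that level, at 6.95 and 8.18, in knockout replicate 1. The array's own control probe sets for Gapdh gave a 3′ minus 5′ difference of 2.34 there, and of 0.96 in the second knockout array and 0.77 to 1.33 among controls. Markers of microglia summed to 13420 and 9318 in the knockout and 2123 to 2752 in the control, with 12 of 12 above every control in both knockout arrays and only P2ry12 under the median level in both groups. Markers of the oligodendrocyte lineage summed to 7985 and 9527 against 5942 to 6550, with 5 of 7 above every control and Mag below. Markers of cortical neurons summed to 1053 and 494 against 314 to 390, with Bcl11b above every control and Neurod2, Neurod6 and Fezf2 under the median level. Xist was at 4.10 in knockout replicate 2, and elsewhere between 10.79 and 11.54. The part of these features in the results below was not tested, and since the tissue is a mixture, fewer cells of a type and less RNA per cell cannot be told apart.

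With all 5 arrays, 0 of the 84 genes passed an adjusted p of 0.05 in limma, where 0.104% of all genes did. At an unadjusted p under 0.05, 11 genes were higher in the knockout and 11 lower, 13.1% of the members in each direction. Over all genes 6.9% were higher and 4.9% lower at that p. When dim probe sets were left out of the fit, Kcnn1, Kcnmb2 and Kcna1 passed the adjusted threshold, with limma adjusted p = 0.0329, 0.0444 and 0.0463, 3 of 52 members where 0.518% of all genes in that fit passed, against 0.104% with all probe sets. Without knockout replicate 1 the counts were 9 higher and 13 lower (5.34% and 4.53% of all genes). Without knockout replicate 2 they were 11 and 13 (11% and 7.34% of all genes). Without control replicate 1 they were 7 and 9 (4.92% and 3.96% of all genes).

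The median difference over the 84 genes was 0.00, against 0.01 over all genes, with 41 means higher and 43 lower. Of the 52 that reached the median level 30 were lower (57.7%), where 49.5% of the 11968 genes of the whole array that reached it were. The median of the 52 was -0.12, against 0.00 over those 11968 genes. The size of the differences was larger than over all genes: the median absolute difference was 0.21 for the members and 0.15 for all genes, and 6 members (7.14%) differed at least 2-fold, where 2.51% of all genes did. Those 6 were Kcna1, Kcnn1 and Kcnf1 on the lower side and Kcnk6, Kcnab1 and Kcnmb2 on the higher side. These shares are descriptions and were not tested, and the gap between the knockout arrays was also wider for the members, with a median of 0.27 against 0.19 over all genes.

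**Figure D1:**
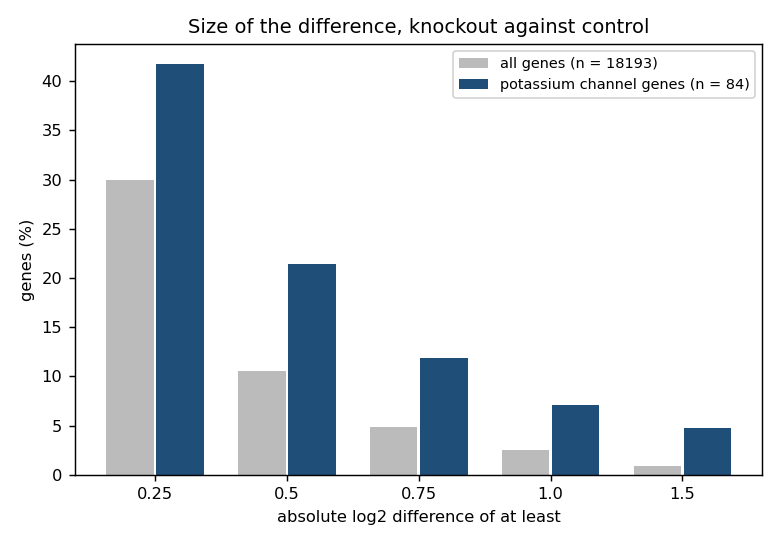
Percentage of genes (y axis) whose absolute log2 difference between knockout and control is at least the value on the x axis, for all 18193 genes (grey) and the 84 potassium channel genes (blue). At 0.5 and above the bar of the channel genes is 21.4% and that of all genes 10.5%.

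Across subfamilies the differences went both ways. In the Kcnn subfamily all 4 means were lower, but Kcnn3 and Kcnn4 were under the median level and overlapped the controls. In the Kcnip subfamily 3 of 4 means were lower, while single members stood out in Kcna, Kcnd, Kcnf and Kcnmb. The 6 Kcnh genes and the 3 Kcnq genes held 0 members at an unadjusted p under 0.05. The 20 genes that reached that p and the median level in a group are described below by role. In all 20 the groups did not overlap, with 9 genes above and 11 below the controls. Choosing genes by p on the same arrays favours such a separation, so it adds no support. Over all 84 members 18 (21.4%) lay above and 17 (20.2%) below, and over all genes 15.8% and 13.9%.

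**Figure D2:**
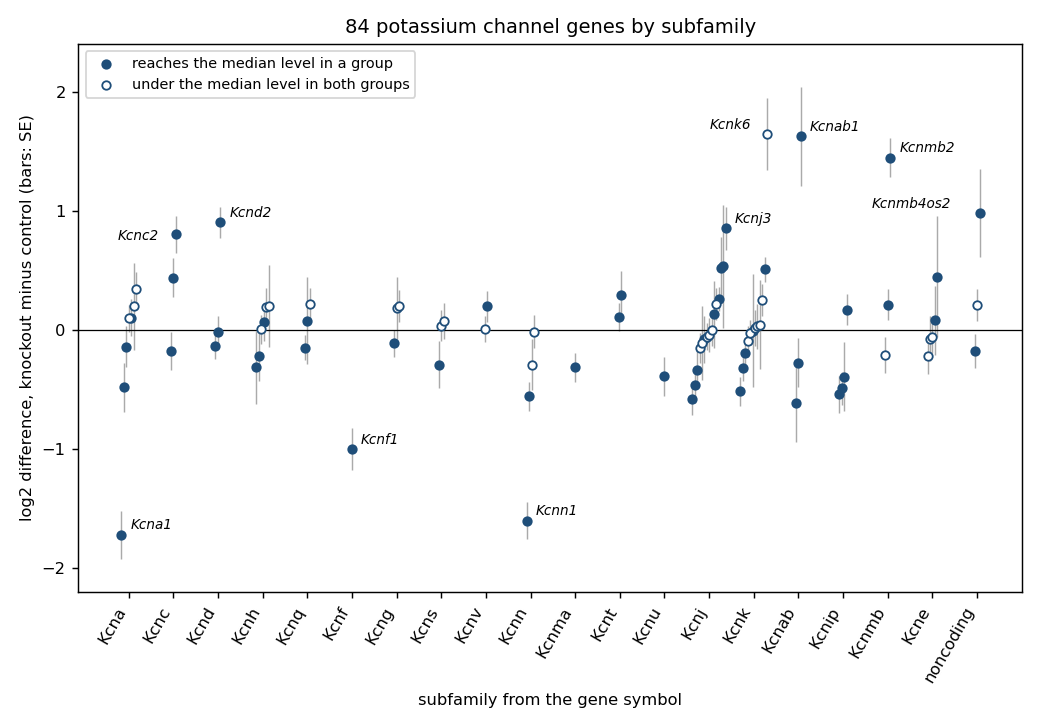
Log2 difference, knockout minus control, of each of the 84 genes (y axis; bars are the limma standard error), grouped by the subfamily in the gene symbol (x axis). Filled points reach the median level of all probe sets in a group and open points do not; Kcna1 (-1.72) and Kcnn1 (-1.60) lie lowest.

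The promoters of the 2 members with the smallest p in each direction among those with a listed window are printed so that the start regions of genes that went opposite ways can be set side by side. They come from RefSeq with build GRCm38.p6, cover 250 bases before to 50 after an annotated start, run 5′ to 3′ on the strand of the gene, and were found for 64 of the 84 genes, Kcna1 not among them. The windows are chr8:70863209-70863508 (minus strand) for Kcnn1, the upstream one of its 2 listed starts, chr12:17176839-17177138 (minus) for Kcnf1, chr3:31902453-31902752 (plus) for Kcnmb2 and chr6:21215096-21215395 (plus) for Kcnd2. Capitals mark the E box CAGCTG and the GC box GGGCGG on either strand. The lower pair comes before the higher pair.
Kcnn1: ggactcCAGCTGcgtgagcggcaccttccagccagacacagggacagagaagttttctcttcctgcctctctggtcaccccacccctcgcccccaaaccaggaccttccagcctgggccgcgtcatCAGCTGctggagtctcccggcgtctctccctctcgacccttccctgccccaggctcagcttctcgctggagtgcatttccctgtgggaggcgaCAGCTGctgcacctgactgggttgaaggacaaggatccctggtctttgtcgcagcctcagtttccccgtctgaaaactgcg
Kcnf1: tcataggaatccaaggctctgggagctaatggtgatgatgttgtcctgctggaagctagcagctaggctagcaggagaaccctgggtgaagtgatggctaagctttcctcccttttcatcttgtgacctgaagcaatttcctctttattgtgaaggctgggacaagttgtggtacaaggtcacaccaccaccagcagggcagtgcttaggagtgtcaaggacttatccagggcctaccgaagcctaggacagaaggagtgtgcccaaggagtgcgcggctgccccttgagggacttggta
Kcnmb2: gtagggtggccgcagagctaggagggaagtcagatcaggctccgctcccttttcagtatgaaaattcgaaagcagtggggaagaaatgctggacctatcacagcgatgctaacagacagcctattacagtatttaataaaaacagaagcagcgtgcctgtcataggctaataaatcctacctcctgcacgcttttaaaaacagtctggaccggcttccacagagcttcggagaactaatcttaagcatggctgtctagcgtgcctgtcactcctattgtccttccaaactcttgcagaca
Kcnd2: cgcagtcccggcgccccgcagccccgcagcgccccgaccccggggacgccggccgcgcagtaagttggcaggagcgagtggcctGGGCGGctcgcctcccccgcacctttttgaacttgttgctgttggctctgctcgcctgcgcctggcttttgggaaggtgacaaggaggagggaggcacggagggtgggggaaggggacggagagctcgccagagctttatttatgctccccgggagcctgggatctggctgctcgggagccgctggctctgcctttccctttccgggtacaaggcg

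The Kcnn1 window held 3 E boxes and the Kcnd2 window 1 GC box, and neither motif was found in the windows of Kcnf1 and Kcnmb2. Over all 32851 promoter windows 16.3% held the E box and 35.7% the GC box, and over the 89 windows of the members 27% and 48.3%. The cyclic AMP response element TGACGTCA was found in 0 of the 89 and in 1.79% of all windows. The GC content was 62.3% for Kcnn1, 53% for Kcnf1, 47.7% for Kcnmb2 and 68.7% for Kcnd2. None of the 3 motifs was shared by the lower pair or by the higher pair, windows of 1 gene can overlap each other, and a match says nothing of binding.

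Among the Shaker-type voltage-gated genes, Kcna1 was lower in the knockout. Kcna1 encodes a low-threshold subunit of axons and terminals that limits repetitive firing. It read 7.71 and 7.10 in the knockout and 9.14, 9.01 and 9.22 in the control, so that the groups did not overlap. The means were 7.40 ± 0.43 (SD, n = 2) and 9.12 ± 0.11 (SD, n = 3). The knockout was 3.30-fold lower, a difference of -1.72 with a standard error of 0.20 (limma adjusted p = 0.0859). Of its 3 other probe sets, the ones above the median level gave -1.69 and -1.57 and the third, at 2.35 to 2.51 in every array, gave -0.07. Kcna1 sits between Kcna5 and Kcna6 on chromosome 6 in the RefSeq table of GRCm38.p6, and these neighbours differed by 0.20 and 0.10 (limma adjusted p = 0.874 and 0.842).

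The usual partner of that subunit in axons, Kcna2, was also lower in both knockout arrays, at 8.29 and 8.77 against 8.86 to 9.28 (difference -0.48, limma adjusted p = 0.477). Its second probe set above the median gave -0.19. Kcna4, the A-type member of the subfamily, differed by -0.14. Kcna3, a lymphocyte and microglial channel gene that stayed under the median level, read 5.50 and 5.28 against 4.90 to 5.14 (0.35, limma adjusted p = 0.442).

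The cytoplasmic beta subunits of Shaker-type channels diverged. Kcnab1, whose product adds fast inactivation to these channels, read 7.82 and 9.14 in the knockout and 6.49, 7.15 and 6.94 in the control. Both knockout arrays were above the controls, but they lay 1.32 apart, and the difference of 1.62 had a standard error of 0.42 (limma adjusted p = 0.284). Taken alone, knockout replicate 1 was 0.97 and replicate 2 was 2.28 above the control mean. The other probe set of Kcnab1, under the median level, gave 0.39 with overlapping arrays. Kcnab2 and Kcnab3 had lower means at their brightest probe sets, at -0.28 and -0.62, and neither reached an unadjusted p of 0.05 there. The other set of Kcnab3, under the median level, gave -0.66 with the groups apart (limma adjusted p = 0.298).

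Of the Shaw-type genes, which serve high-frequency firing, Kcnc2 and Kcnc4 were higher. Kcnc2 read 11.13 and 10.71 in the knockout and 10.18, 10.12 and 10.06 in the control, a difference of 0.80 with a standard error of 0.16 (limma adjusted p = 0.191). Knockout replicate 1 was the higher of the pair, and replicate 2 alone lay 0.59 above the control mean. Kcnc4 read 10.58 and 10.80 against 10.18, 10.10 and 10.49, a difference of 0.44 with control replicate 3 close to the knockout. The name of its probe set ends in _s_at, which the array maker gives to sets that can match transcripts of more than 1 gene, and the other set of this gene gave 0.18 (limma adjusted p = 0.633). Kcnc1 differed by -0.18 at its brightest probe set, and by -0.39 and -0.55 at dimmer ones above the median (limma adjusted p = 0.422 and 0.242).

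The Shal-type gene Kcnd2 was higher in the knockout. It encodes the pore of the dendritic A-type current, which delays firing. It read 11.34 and 11.50 in the knockout and 10.61, 10.57 and 10.38 in the control, with means of 11.42 ± 0.11 (SD, n = 2) and 10.52 ± 0.12 (SD, n = 3). The gap between the groups, 0.90 with a standard error of 0.13, was wider than the spread within either (limma adjusted p = 0.120). Its other probe sets gave 1.01, 0.37 with overlapping arrays, and -0.04 at a level near 4.

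Other genes of the A-type complex had differences of both signs. Kcnd3, a second pore gene, differed by -0.14 at its brightest probe set, while dimmer sets gave -0.92 and -0.68 (limma adjusted p = 0.214 and 0.177). The calcium-binding Kcnip proteins bind the same pores and bring them to the membrane. Kcnip1 read 9.95 and 9.61 in the knockout and 10.25, 10.25 and 10.47 in the control, a difference of -0.54 (limma adjusted p = 0.315). Kcnip4 read 9.64 and 9.98 against 10.26, 10.34 and 10.30, a difference of -0.49 (limma adjusted p = 0.314), and of -0.32 without knockout replicate 1. All 5 other probe sets of Kcnip1 and Kcnip4 had lower means too, from -0.29 to -0.81. The span of Kcnip1 overlaps that of Kcnmb1, which was under the median level and differed by -0.21. Kcnip2 differed by -0.39 and Kcnip3 by 0.17, neither at an unadjusted p under 0.05. Dpp6, the gene of a membrane partner of the same pores and a member of the partner list, differed by -0.42 (limma adjusted p = 0.421). Dpp10, another such partner, differed by 0.36, with knockout replicate 1 inside the control range (limma adjusted p = 0.617).

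Silent subunits form no channel alone but modify others of the voltage-gated class. Kcnf1 was the 1 of 9 such genes at an unadjusted p under 0.05. It read 9.26 and 8.99 in the knockout and 9.99, 10.00 and 10.40 in the control, a difference of -1.003 with a standard error of 0.18 (limma adjusted p = 0.165). Its other probe set, under the median in both groups, gave 0.26, and with the mean of both probe sets the difference was -0.37. Kcns2 differed by -0.29 at its brightest probe set, where the arrays overlapped, and by -0.69 at the other (limma adjusted p = 0.141). Kcng2, the Kcng gene above the median, differed by -0.11.

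Among the remaining voltage-gated families, the delayed and slow channels of Kcnh and Kcnq gave small differences. The largest above the median were Kcnh8, of the Elk type, at -0.31 (limma adjusted p = 0.742) and Kcnq3, a subunit of the M-current that damps repeated firing, at -0.15 (limma adjusted p = 0.638). Kcnq5, of the same current, was at 10.43 and 9.17 in the knockout arrays and from 9.63 to 9.81 in the control, so that the knockout arrays lay on opposite sides.

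**Figure D3:**
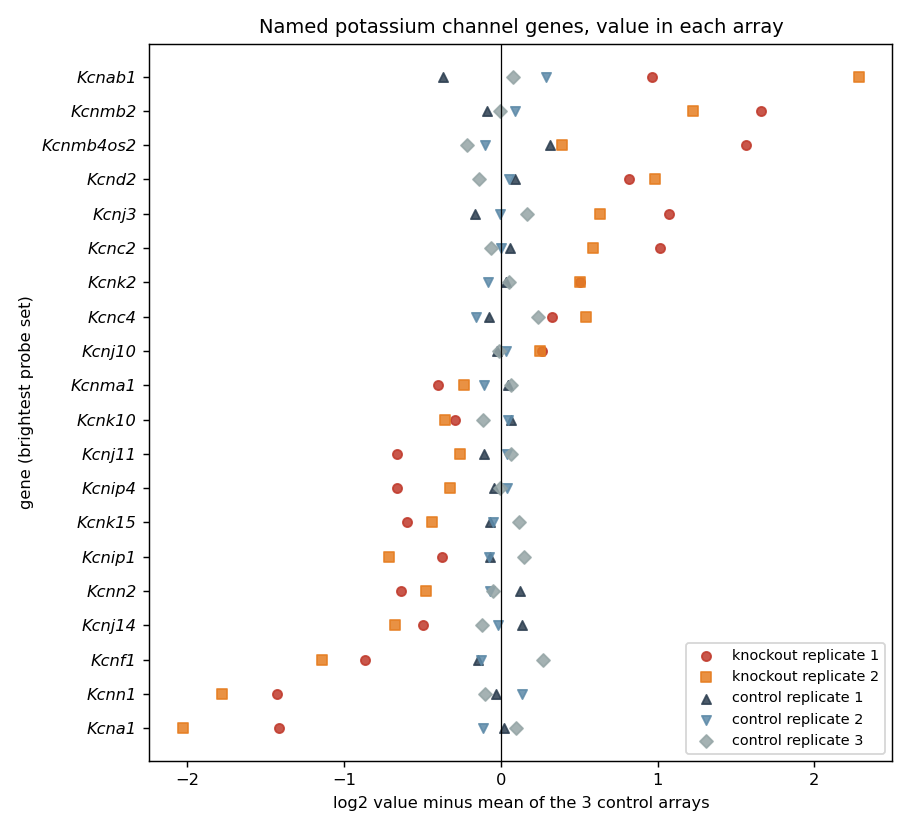
Value of each of the 5 arrays minus the mean of the 3 control arrays (x axis, log2) for the 20 named genes (y axis), at the brightest probe set. In every row both knockout arrays lie on one side of all controls; the knockout arrays of Kcnab1 (0.97 and 2.28) and Kcnmb4os2 (1.57 and 0.39) lie far apart.

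Of the calcium-activated channels of small conductance, Kcnn1 and Kcnn2 read lower in the knockout. These channels carry the current that follows a burst of spikes and holds the next one back. Kcnn1 read 8.69 and 8.34 in the knockout and 10.09, 10.26 and 10.02 in the control, with means of 8.52 ± 0.25 (SD, n = 2) and 10.12 ± 0.12 (SD, n = 3). The difference of -1.60, a 3.04-fold lower level, had a standard error of 0.15 and the smallest p of all members (limma adjusted p = 0.0648). At the other Kcnn1 set the difference was -0.91, also with the groups apart (limma adjusted p = 0.295).

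Kcnn2, a further gene of that group, read 8.57 and 8.73 against 9.33, 9.14 and 9.16, a difference of -0.56 with a standard error of 0.12 (limma adjusted p = 0.232). Kcnn2 lies on chromosome 18, as Sema6a does, with 13 coding genes between them in the RefSeq table, and whether its difference has to do with that position was not tested. Kcng2, on the same chromosome with 178 coding genes between, differed by -0.11. Kcnn3 differed by -0.02 with overlapping arrays, and Kcnn4, known from microglia and blood cells, by -0.29, both under the median level.

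The large-conductance channel opens on calcium and voltage together. Its pore gene Kcnma1 read 10.54 and 10.70 in the knockout and 10.98, 10.83 and 11.00 in the control, a difference of -0.32 (limma adjusted p = 0.429). Further sets of Kcnma1 disagreed in direction, at -0.36, -0.19, 0.16 and 0.38, and with the mean of all of them the difference was -0.07. Its auxiliary gene Kcnmb2, whose product inactivates the channel, was higher, at 8.19 and 7.75 against 6.44, 6.62 and 6.52. The means were 7.97 ± 0.31 (SD, n = 2) and 6.53 ± 0.09 (SD, n = 3), and the difference of 1.44 had a standard error of 0.16, 2.72-fold (limma adjusted p = 0.0834). A dimmer probe set of Kcnmb2 gave 0.74, with the groups apart (limma adjusted p = 0.359). Kcnmb4, the neuronal auxiliary gene, differed by 0.21 (limma adjusted p = 0.606). Kcnt1 and Kcnt2, of the sodium-activated channels, differed by 0.11 and 0.29, and Kcnu1, known from sperm, by -0.39, none at an unadjusted p under 0.05.

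The inward rectifiers let potassium in more easily than out and steady the resting potential. Kcnj3, a subunit of the channel that G-protein-coupled receptors open, was higher, at 9.36 and 8.92 in the knockout and 8.12, 8.29 and 8.46 in the control. The difference was 0.85 with a standard error of 0.18 (limma adjusted p = 0.219), and the next probe set above the median gave 0.98 (limma adjusted p = 0.126). Its partners showed no such separation at the brightest probe sets, where Kcnj6, under the median level in both groups, differed by -0.11 and Kcnj9 by -0.08. A dimmer set of Kcnj9, still above the median, gave -0.52 (limma adjusted p = 0.358). Kcnj5, of the same channel group, was at 7.51 and 9.29 in the knockout arrays and from 7.56 to 8.05 in the control.

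Kcnj14, a strong inward rectifier, read 6.82 and 6.63 in the knockout and 7.45, 7.29 and 7.19 in the control (difference -0.59, limma adjusted p = 0.240). Kcnj10, the glial channel that takes up potassium in astrocytes, read 8.42 and 8.40 against 8.13, 8.19 and 8.14 (0.26, limma adjusted p = 0.440). Beside it, the 8 markers of astrocytes and radial glia summed to 25680 and 26130 in the knockout and 21880 to 24930 in the control, 2 of them with both knockout arrays above every control and Gfap under the median in both groups.

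The ATP-sensitive channels pair a Kcnj pore with a sulfonylurea receptor, and the neuronal and vascular pairs had opposite signs. Kcnj11, the neuronal pore gene, read 8.66 and 9.06 in the knockout and 9.22, 9.36 and 9.39 in the control, a difference of -0.46 (limma adjusted p = 0.381), and of -0.26 without knockout replicate 1. Its receptor gene Abcc8 read 8.33 and 8.35 against 8.69 to 9.11, a difference of -0.61 (limma adjusted p = 0.294). Kcnj8, the pore gene of pericytes and smooth muscle, read 8.52 and 8.82 against 7.79, 8.58 and 8.07, with control replicate 2 inside the knockout range (0.52, limma adjusted p = 0.528). Its receptor gene Abcc9 read 8.91 and 8.19 against 7.83 to 7.93 (0.65, limma adjusted p = 0.384). Knockout replicate 1 lay 1.01 and replicate 2 lay 0.29 above the control mean of Abcc9. The name of that probe set ends in _s_at, as that of Kcnc4 does. The 8 markers of endothelial cells and pericytes summed to 7141 and 8565 in the knockout and 6685 to 8596 in the control, with 2 of 8 above every control in both knockout arrays and Pecam1 and Cdh5 under the median, and the pericyte markers Pdgfrb and Rgs5 differed by -0.15 and -0.24.

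The tandem-pore channels carry the background leak current. Kcnk2 and Kcnk10 encode close relatives that answer to stretch, lipids and temperature, and their differences had opposite signs. Kcnk2 read 9.80 in both knockout arrays and 9.33, 9.21 and 9.35 in the control (0.51, limma adjusted p = 0.218), where equal knockout values narrow the spread. Kcnk10 read 10.99 and 10.93 against 11.34, 11.33 and 11.17 (-0.32, limma adjusted p = 0.398), and its other probe set gave -0.50. Kcnk15, grouped by sequence with the acid-sensitive leak channels, read 11.16 and 11.32 against 11.69, 11.70 and 11.87 (-0.52, limma adjusted p = 0.254). Kcnk1 differed by -0.20 and Kcnk3 by -0.01, the latter with knockout arrays 1.37 apart.

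The largest difference among the higher members belonged to a dim gene, Kcnk6, which was singled out after its values were seen. It read 5.46 and 4.47 in the knockout and 3.43, 3.36 and 3.17 in the control (1.64, limma adjusted p = 0.173), with 1.15 for knockout replicate 2 alone. Kcnk13, a channel gene of microglia that stayed under the median level, read 6.04 and 5.26 against 5.06 to 6.12, a difference of 0.04. Whether Kcnk6 or Kcnk13 follows the microglia markers was not tested.

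**Figure D4:**
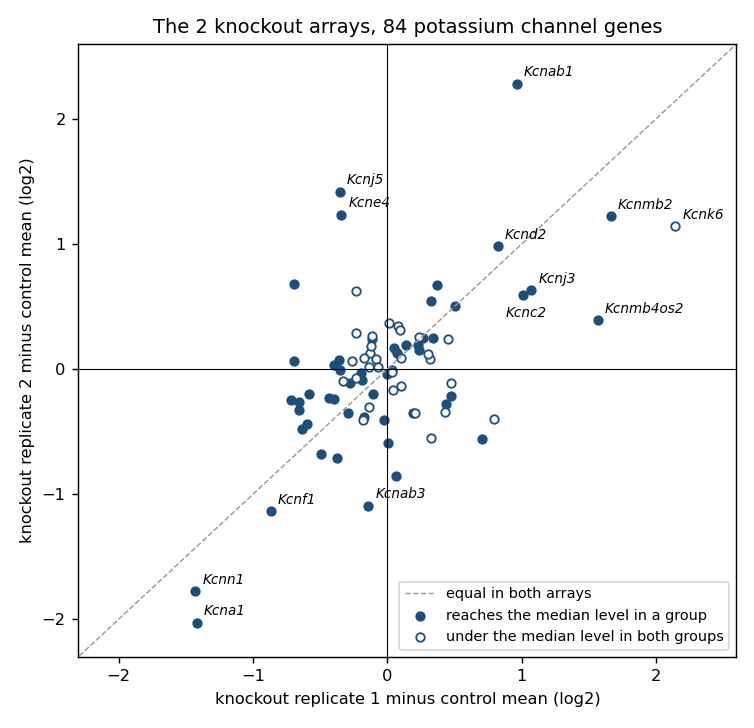
Each of the 84 genes by its value in knockout replicate 1 (x axis) and in knockout replicate 2 (y axis), both as the log2 difference from the mean of the 3 control arrays. Kcna1, Kcnn1 and Kcnf1 lie far below 0 in both arrays and Kcnmb2 and Kcnd2 above; Kcnj5 and Kcne4 are above 0 in replicate 2 only.

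The knockout arrays differed from each other by more than 1 for 7 of the 84 genes (8.33%), against 3.86% of all genes. Kcnj5 and Kcne4, an auxiliary gene that dampens voltage-gated channels, were above the control mean in replicate 2 by 1.42 and 1.24 and below it in replicate 1. Kcne4 read 6.24 and 7.82 against 6.31 to 7.08, and none of the 5 Kcne genes reached an unadjusted p of 0.05.

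Of the non-coding RNAs, Kcnmb4os2, named as an opposite-strand transcript of Kcnmb4 and overlapping its span, read 8.12 and 6.94 in the knockout and 6.86, 6.46 and 6.34 in the control (0.98, limma adjusted p = 0.428). Knockout replicate 1 made most of that difference, since replicate 2 alone was 0.39 above the control mean. Whether its probe set separates the strands was not tested. Kcnmb4os1 differed by 0.21, and Kcnq1ot1, the imprinted RNA of the Kcnq1 locus, by -0.18.

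The other probe sets bear on how far a single set can be read. Of 25 further probe sets of the 20 named genes, 20 had a difference of the same sign as the brightest. Among the 15 of them that reached the median level 13 did, and the exceptions were both sets of Kcnma1. Outside the named genes, 10 of 58 further probe sets, of 8 genes, had an unadjusted p under 0.05, with 10 lower and 0 higher in the knockout. Over all probe sets that are not the brightest of their gene, 8.19% were lower and 3.93% higher at that p. The 10 sets belonged to Kcnab3 (-0.66), Kcnc1, Kcnd3, Kcnj6 (-0.30), Kcnj9, Kcnk1 (-0.40), Kcns2 and Kcnq1ot1 (-0.51). Of them 8 reached the median level, while that of Kcnab3 did not and that of Kcnj6 read only 2.13 to 2.61.

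**Figure D5:**
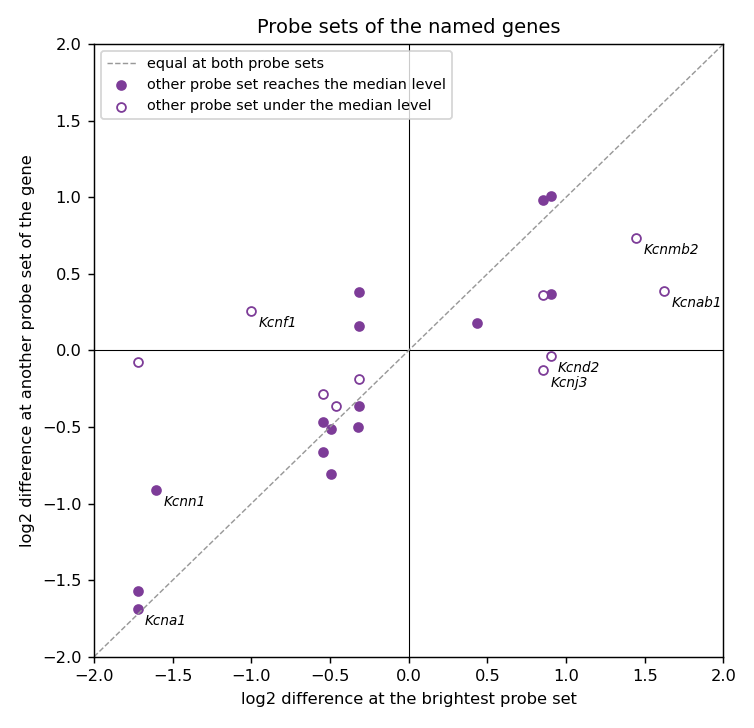
Log2 difference, knockout minus control, at the brightest probe set of a named gene (x axis) and at each of its 25 other probe sets (y axis). Filled points reach the median level; those of Kcna1 (-1.69 and -1.57) lie close to the dashed line of equal values, and that of Kcnn1 (-0.91) nearer to 0.

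Genes whose products bind, anchor or regulate potassium channels were read from a list of 33, of which 31 were measured. Over that list 0 passed the adjusted threshold in limma, and 3 were higher and 3 lower at an unadjusted p under 0.05, 19.4% where 11.8% of all genes did in either direction. Besides Abcc8, Abcc9 and Dpp6 these were Dlg1, a scaffold of channels at synapses (0.73, limma adjusted p = 0.229), Cntn2, an adhesion gene that clusters Shaker-type channels along axons (0.51, limma adjusted p = 0.367), and Rgs4, a brake on G-protein signalling (-0.50, limma adjusted p = 0.254). The median over the 31 genes was -0.05. Both knockout arrays lay above every control for 3 of them (9.68%) and below for 8 (25.8%), where 15.8% and 13.9% of all genes did. Dlg4 had the largest difference of the list, at -0.75 (limma adjusted p = 0.488). Ank3, the scaffold gene of the axon initial segment, and Cntnap2, an adhesion gene that holds Shaker-type channels in place along axons, differed by -0.22 and -0.20 (limma adjusted p = 0.539 and 0.623).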

How the data were processed

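RNA of dLGN tissue, dissected from sections of 200 µm, was measured on 5 Affymetrix arrays. Amplification and biotin labelling used Nugen kits and 20 ng of RNA per array, per the labels' protocols. The deposited values are log2 expression per probe set made by the authors with RMA, per the submitters' processing notes; its version is not given in the sources used here. Because RMA equalises the arrays' distributions, a shift of most genes is hidden, and low signals differ less than their transcripts. A total of 64 array control probe sets were left out. The platform annotation named 34945 probe sets by 1 gene, and all 167 potassium channel probe sets were found by gene ID in the RefSeq table of GRCm38.p6 with 0 symbols changed.

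Groups were taken from the titles and compared in limma 3.58.1 (R 4.3.3; functions lmFit, eBayes) by a two-sided moderated test of genotype alone, adjusted over 45037 probe sets by Benjamini-Hochberg (3 residual and 2.52 prior degrees of freedom). The fit was tested on simulated data. P-values measure the spread between pools; precision is limited by the number of arrays, and an exact permutation test of 2 against 3 could not go below 0.1. Genes were named at an unadjusted p under 0.05 with the median level reached in a group, plus the largest difference above that level in each subfamily of 3 or more. Other genes were chosen after their values were seen. Members, lists and rules were chosen with earlier results of these data known. Alternatives were a replicate block, another round of quantile normalisation, centring, no dim probe sets, an intensity trend, array weights, the mean of all probe sets and each array left out.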

Additional observations from a re-analysis of the deposited data

Results flagged for a closer look

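The array control probe sets, which the comparison left out, showed a signal above the level in the control arrays. For Gapdh the 3′ minus 5′ difference of log2 values was 2.34 in knockout replicate 1 and at most 1.33 in the control arrays, a gap wider than the range of the controls (0.55). For Actb the same array gave 1.91, against at most 1.45, a gap narrower than the range of the controls (0.83). Its part in the channel gene values was not tested. Without that array the differences were -2.03 for Kcna1, -1.78 for Kcnn1, 1.23 for Kcnmb2 and 0.98 for Kcnd2. The rule that picked it out was chosen after the values were seen.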

How the results depend on the processing

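For the 20 named genes 5 of 240 values under 12 alternatives were past an adjusted p of 0.05 in limma; their direction was largely fixed by the choice of genes, whose groups did not overlap, and is no sign of stability. With all probe sets and 5 arrays, 0 members passed; without dim probe sets 3 passed (Kcnn1, adjusted p = 0.0329, Kcnmb2, 0.0444, and Kcna1, 0.0463; fewer features tested), with an intensity trend 1 (Kcnn1, 0.0365) and with the mean of all probe sets 1 (Kcna1, 0.0316). Over all features 33 of 45037 passed in the full comparison, 114 of 23142 without dim probe sets, 100 of 45037 with the trend and 99 of 18193 with the mean. Over the alternatives the adjusted p lay between 0.0329 and 0.371 for Kcnn1, 0.0316 and 0.412 for Kcna1 and 0.0444 and 0.399 for Kcnmb2. Without dim probe sets the median over the remaining 52 members was -0.12, against 0.00 over 84. With 1 array left out, 0 members passed, the median lay between -0.046 and 0.0069, the genes higher at an unadjusted p under 0.05 numbered 7 to 11 and those lower 9 to 13 (4.86% to 11% and 3.12% to 7.34% of all genes). Members with the knockout above every control then numbered 19 to 33 and those below 17 to 36. For the p-values, fits with 1 knockout array left assume that this array varies like the controls. The counts of members above or below every control use no fit, only the order of the arrays. They were highest with 1 knockout array left. Leaving an array out can keep or raise such a count but cannot lower it. The share of all genes with such a separation was not counted with an array left out. The rise in these counts therefore cannot be tied to the channel genes. No label says that the replicate number pairs arrays. Deviations from the group means of same-numbered arrays correlated at 0.15 and 0.21, and those of other-numbered arrays at -0.21 to 0.06. The 2 knockout arrays deviate from their mean by equal and opposite amounts, so these values are not independent and cannot show a pairing. Control replicate 3, the only array with its number, adds nothing to the difference in the block fit. With the replicate block 9 members were higher and 10 lower at an unadjusted p under 0.05 (6.72% and 4% of all genes). The block, quantile normalisation, centring and array weights gave 0 members past the adjusted threshold. Several named genes were not at an unadjusted p under 0.05 in every setting, among them Kcnma1 (6 of 12), Kcnj10 (4 of 12), Kcnc4, Kcnj11, Kcnk10 and Kcnmb4os2 (8 of 12 each).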
